A study of Mus musculus with 32 samples.

Results

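The genes described here encode the proteins of the cytosolic ribosome in mouse cochlea, with Rpl22, the gene that carries the RiboTag epitope, set against the rest. Members were the genes whose symbol is Rpl or Rps followed by a number and an optional letter, l or digit, plus Rplp0, Rplp1, Rplp2 and Rpsa. Of the 39399 genes listed in all 32 libraries, 90 symbols matched. The pattern also took the kinase-like gene Rps6kl1 and 5 genes annotated as pseudogenes (Rpl6l, Rps12l1, Rps3a2, Rps3a3 and Rps4l), which were left out because pseudogenes and kinases were not meant. The 84 members were 43 large subunit genes, 31 small subunit genes, 3 genes of the P stalk (Rplp0, Rplp1 and Rplp2) and 7 paralogs (Rpl3l, Rpl7l1, Rpl10l, Rpl22l1, Rpl36al, Rpl39l and Rps27l).

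The study followed RNA of 2 cochlear cell types, and of the cochlea as a whole, after damaging noise. Mice of 10 weeks on a CBA background had the genotype PrestinCre/+;RiboTagHA/+ (a PrestinCreERT2 driver, active in outer hair cells) or Sox2Cre/+;RiboTagHA/+ (a Sox2CreERT2 driver, active in supporting cells). All groups therefore carried a Cre driver and the RiboTag allele, and no group lacked either. They were left without noise (control) or were exposed to 105 dB SPL for 2 h and sampled 6 h or 24 h later. Part of each cochlear homogenate gave total RNA, the input, and the rest an immunoprecipitate with an HA antibody, the IP. The 12 groups held 3 libraries each for Prestin IP and Prestin input at every time, and for Sox2 IP and Sox2 input 2 as control, 2 at 6 h and 3 at 24 h. The labels call the libraries biological triplicates and do not say whether animals were pooled, so p-values measure the spread between these samples.

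A ribosome is built from a large and a small subunit, in which most proteins are normally present once. The P stalk of the large subunit recruits the factors that drive elongation. The RiboTag allele lets Cre exchange the last exon of Rpl22 for one that ends in an HA tag, so ribosomes of Cre-expressing cells can be pulled down with the RNA they translate. Rpl22 has a close paralog, Rpl22l1, which can take its place in the ribosome. Messages of ribosomal proteins are among the most abundant of a cell, are short, and have left many processed pseudogenes, which are DNA copies of spliced messages.

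Markers of the labelled cell types were higher in the IPs, and so were those of Schwann cells and some other types. The marker calls are to be read against all genes, of which 68.5% were called higher in the Prestin IP and 55.2% in the Sox2 IP. The summed level of 8 outer hair cell markers was 507.8 to 2207 TPM (transcripts per 1000000, a length-scaled share of a library) in the Prestin IPs and 80.4 to 111.4 TPM in the Prestin inputs. Of 9 supporting cell markers 8 were called higher in the Sox2 IPs against input, with sums of 4062 to 7818 TPM (median 5473) against 2138 to 3314 TPM (median 2826). All 8 Schwann cell markers were called higher there too, and their sum differed more, with 2796 to 8450 TPM (median 6008) against 830.8 to 1240 TPM (median 959.1). In the Prestin strain 6 of 8 Schwann cell markers were called higher, with sums of 1275 to 2296 TPM in the IPs and 686.9 to 1239 TPM in the inputs, without overlap. Outer hair cell markers were also higher in the Sox2 IPs, with sums of 122.2 to 160.8 TPM against 73.1 to 99.1 TPM. Neuron sums overlapped, with medians of 1255 against 859.4 TPM (Prestin) and 1283 against 949.3 TPM (Sox2). Erythroid medians were lower in the IPs, at 1155 against 1722 TPM and 914.1 against 1663 TPM. The part of RNA of Schwann cells and other types in the IP results was not tested. Between 15929 and 21239 genes were above 0 in a library, and the 4 Sox2 libraries at 6 h held the fewest of all, at most 16966. Genes of the mitochondrial genome took 20.5% to 28.6% of TPM in the inputs and 3.07% to 13.7% in the IPs. Read depth cannot be had from TPM and is unknown for every value here.

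Most of the signal of this gene family stood in rows of other genes. A search of all annotated transcripts found 819 genes whose transcript matched at least 70% of a member's coding sequence at 90% identity or more, 801 of them annotated as pseudogenes, and 78 of the 84 members had at least 1 such copy. In 67 members the copies together were listed at a higher TPM than the gene itself. Across the coding sequences the median share of 50-base pieces found in no other gene was 9.73%, and 29 members had none. How the authors' counting treated reads that fit several places is not given in the sources used here, so reads of a gene and of its copies cannot be told apart in these values.

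The following sequences show how close the copies are, for the copy that carries nearly all signal of Rpl11 (Gm10288) and for the tagged gene Rpl22. Each is 60 bases of coding sequence from GENCODE M21 on GRCm38, written 5′ to 3′ on the gene's own strand, and capitals mark bases that differ within a pair.
Rpl11 (chromosome 4, 136028265 to 136053428, minus strand) and Gm10288 (chromosome 3, 146838811 to 146839347, minus strand) differ at 1 of 534 coding bases, shown within bases 57 to 116.
Rpl11: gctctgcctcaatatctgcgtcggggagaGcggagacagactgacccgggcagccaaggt
Gm10288: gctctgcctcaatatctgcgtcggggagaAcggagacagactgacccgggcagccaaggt
Rpl22 (chromosome 4, 152325742 to 152334071, plus strand) and its highest copy Rpl22-ps1 (chromosome X, 8038611 to 8038996, minus strand) differ at 14 of 377 aligned bases, 6 of them within bases 172 to 231, the stretch with the most differences.
Rpl22: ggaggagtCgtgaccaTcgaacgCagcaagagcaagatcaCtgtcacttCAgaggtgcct
Rpl22-ps1: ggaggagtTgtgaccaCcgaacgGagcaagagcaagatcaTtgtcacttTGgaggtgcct
The paralog Rpl22l1 (chromosome 3, 28805436 to 28807424, plus strand) is much more distant, with 72.3% identity over 365 aligned bases; the last 60 coding bases of Rpl22, where the HA tag follows in the recombined allele, hold 18 differences.
Rpl22: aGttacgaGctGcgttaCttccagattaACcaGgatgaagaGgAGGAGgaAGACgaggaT
Rpl22l1: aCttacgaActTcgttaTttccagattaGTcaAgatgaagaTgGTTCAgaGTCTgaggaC

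Genes and copies had very unequal levels. As a mean of the 12 group means, Rps29 was listed at 24.3 TPM and its copy Gm14303 at 7989 TPM, and Rpl11 at 2.65 TPM and Gm10288 at 2979 TPM. Rpl22 was listed at 101.2 TPM and its 4 copies together at 65.5 TPM. The coding sequence of Rpl22 was 69.0% unique, so this gene was among the better separated members. In 6 members no copy was found, among them Rpl8, Rps3 and Rps9.

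The 84 members together held a small part of each library. Their own rows summed to 0.712% to 1.002% of TPM in the Prestin IPs, 1.29% to 1.41% in the Prestin inputs, 0.677% to 0.942% in the Sox2 IPs and 0.785% to 1.14% in the Sox2 inputs. Summed with their copies they held 6.15% to 9.09% in the 9 Prestin IPs and 13.6% to 15.5% in the 9 Prestin inputs. For the Sox2 strain these sums were 7.33% to 9.41% in the 7 IPs and 11.5% to 15.1% in the 7 inputs. With the copies no IP reached the lowest input of its strain, and the mean share was 7.17% ± 0.900 (SD, n = 9) in Prestin IPs against 14.7% ± 0.659 (SD, n = 9) in Prestin inputs, and 8.05% ± 0.775 (SD, n = 7) against 13.1% ± 1.18 (SD, n = 7) in the Sox2 strain. In bulk samples fewer cells of a type and less RNA per cell cannot be told apart. The mitochondrial share given above also differed between IP and input, and its part in the result was not tested; without mitochondrial genes, Malat1 and Mir6236 in the total, the own-row share was lower in the IPs by a difference of -0.828 and -0.437 percentage points, against -0.517 and -0.183 with them.

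**Figure D1:**
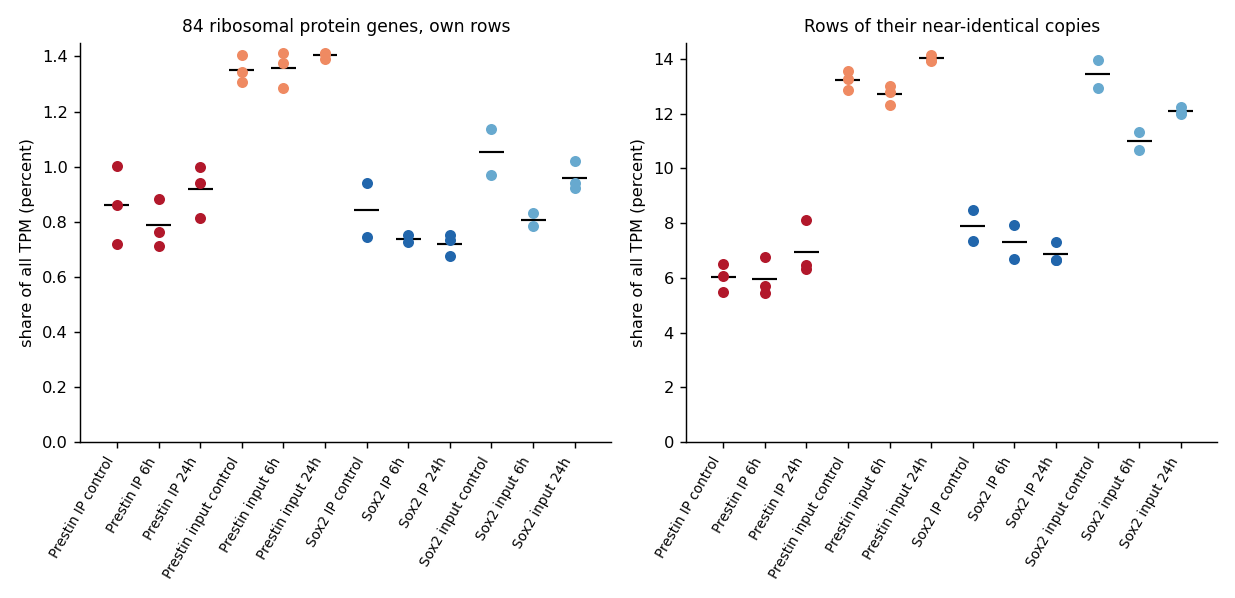
Share of each library's TPM (percent, y axis) in the own rows of the 84 ribosomal protein genes (left) and in the rows of their near-identical copies (right), by group. Points are libraries and lines are group means. The copies hold several times more than the genes, and their points are lower in every IP group than in the inputs of the same strain.

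Own-row levels of the members spread over more than 3 orders of magnitude. By the mean of the 12 group means the 5 highest were Rpl8 (1171 TPM), Rps21 (788.0 TPM), Rplp1 (774.7 TPM), Rps3 (733.3 TPM) and Rpl41 (709.8 TPM). Rpl8 and Rps3 are core proteins of the large and small subunit, and Rpl41 is the shortest ribosomal protein. The library ranges of all 5 overlapped, from 486.5 to 1586 TPM in Rpl8, 51.4 to 1862 TPM in Rps21 and 579.1 to 1011 TPM in Rps3, so their order is not resolved. The 5 lowest were Rpl11 (2.65 TPM), Rpl24 (0.709 TPM), Rpl3l (0.653 TPM), Rpl39l (0.162 TPM) and Rpl10l, which was listed at 0 in all libraries. Rpl3l, Rpl39l and Rpl10l are paralogs known from striated muscle and testis. The low place of Rpl11, a core protein, goes with copies at 3216 TPM. The median member was at 28.4 TPM, 18 members were above 100 TPM, and 67 were above 1 TPM in all 32 libraries. Across the 84 genes the unique share of the coding sequence and the log2 level went together with Pearson r = 0.317.

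Of the paralogs other than Rpl3l, Rpl39l and Rpl10l, own rows put Rpl36al at 245.5 TPM, Rps27l at 54.6 TPM, Rpl22l1 at 50.3 TPM and Rpl7l1 at 49.7 TPM. Copies held 64.5%, 44.9%, 71.0% and 29.7% of their summed TPM, in the same order, so these levels are not clear of the copies. Rpl22 itself took the 18th place among the members by its own row. In single libraries its rank was between 12 and 22 of 84. With copies added to every member, Rpl22 fell to ranks 66 to 73. Its own row lay above the median of the other members in every library, by 1.10 to 2.47 on the log2 scale. The summed value lay below their median in every library, by a log2 difference of -3.50 to -1.76. The place of the tagged gene within its family therefore turned with the treatment of the copies.

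The first comparison asked how the ribosome-bound RNA of tagged cells differs from the RNA of the whole cochlea. A gene was called where the adjusted p of limma on log2(TPM + 1), with Benjamini-Hochberg adjustment over all genes tested, was below 0.05. In own rows the members split. In the Prestin strain 81 members were tested (3 did not reach the filter), of which 38 were called higher and 25 lower in the IP. Of all genes tested, 68.5% were called higher and 7.68% lower. The median log2 fold was 0.17 over the members and 0.82 over all genes. Among Sox2 libraries 13 of 82 members were called higher and 18 lower, against 55.2% and 2.72% of all genes, with medians of 0.00 and 0.65. Both counts moved with the scaling between libraries. With median-of-ratios scaling, 12 members were called higher and 50 lower in the Prestin strain, and 3 higher and 46 lower in the Sox2 strain. The shares of all genes called under that scaling are not given here, so these counts have no background to be read against. That scaling moved the median of all genes from 0.82 to 0.05 and from 0.65 to 0.02, so the members lay below the median gene under either.

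Summed with their copies, the members moved together. In the Prestin strain 72 of 81 members were called lower in the IP and 3 higher, against 7.25% and 69.2% of all genes in the same fit. Among Sox2 libraries 54 of 82 were called lower and 3 higher, against 2.47% and 56.1% of all genes. The median log2 fold of the summed members was -0.96 in the Prestin strain and -0.54 in the Sox2 strain, where that of all genes was 0.82 and 0.66. Of 81 members tested in both strains, 52 were called lower in both, 1 (Rpl11) was called higher in both, and 2 were called in opposite directions. The shares of all genes called in both strains are not given here. Only the 450 of 18255 genes called lower in the Sox2 strain could be lower in both. Summing each gene with its copies was chosen after the data were seen. Of the 38 members called higher in the Prestin strain in their own rows, 31 were called lower once summed, 4 were not called and 3 were still called higher, while all 25 members called lower stayed so.

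**Figure D2:**
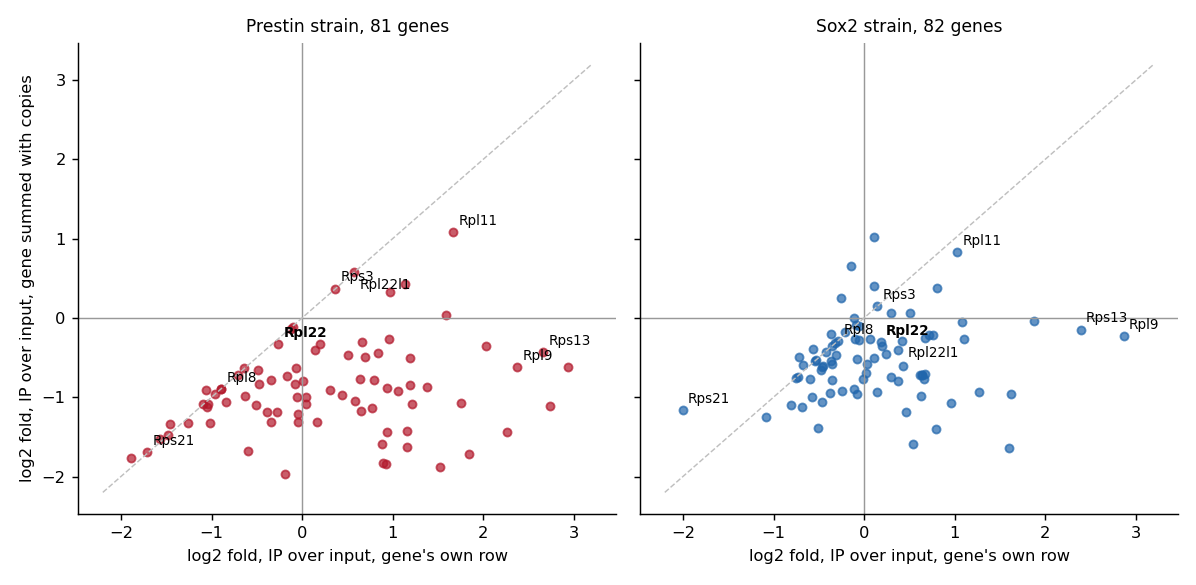
Log2 fold of IP over input for each ribosomal protein gene in its own row (x axis) and summed with its near-identical copies (y axis), Prestin strain left and Sox2 strain right. Points on the dashed line have the same value in both. Most points lie below 0 on the y axis, with medians of -0.96 and -0.54, while the x values spread to both sides of 0.

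Members that the copies hardly touch showed the same direction in their own rows. Of 13 tested members with at least 50% unique coding sequence, 11 were called lower in the Prestin IP, Rps3 was called higher and Rpl7l1 was not called, with a median log2 fold of -0.90. Of the 29 members without any unique piece, 23 were called higher and 1 lower, with a median of 1.05. In the Sox2 strain 1 (Rpl22) was called higher and 9 lower of 14 with at least 50% unique sequence, with a median of -0.39. Of the 29 without a unique piece, 9 were called higher and 0 lower there, with a median of 0.54. All genes gave 68.5% higher and 7.68% lower in the Prestin IP, and 55.2% and 2.72% in the Sox2 IP. Their medians were 0.82 and 0.65. The median member without a unique piece thus lay above the median gene in the Prestin strain and below it in the Sox2 strain. Across members the unique share and the own-row log2 fold had Pearson r = -0.554 and Spearman rho = -0.673 in the Prestin strain (81 genes) and r = -0.400 and rho = -0.477 in the Sox2 strain (82 genes). The genes share libraries and reads and are not independent, and the cause of this relation was not tested.

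**Figure D3:**
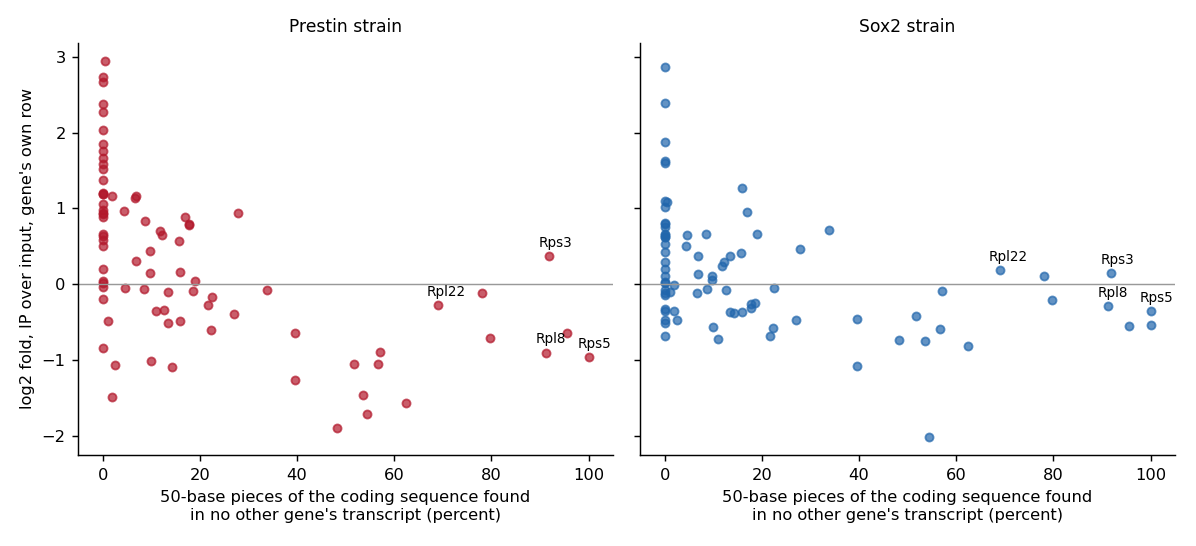
Own-row log2 fold of IP over input (y axis) against the percent of 50-base pieces of the coding sequence found in no other gene's transcript (x axis), Prestin strain left and Sox2 strain right. Each point is a ribosomal protein gene. Genes at 0% unique sit mostly above 0, and genes above 50% mostly below 0.

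The members without copies show the values behind this, and they were not equal. Rpl8, a large subunit protein near the peptidyl transferase centre, was at 486.5 to 911.9 TPM (median 679.9) in the 9 Prestin IPs and at 1172 to 1402 TPM (median 1312) in the 9 inputs. Every IP lay below every input, with a log2 fold of -0.90 ± 0.10 (SE of the fit; limma, adjusted p = 1.6e-06). Sox2 libraries had Rpl8 at 1043 to 1316 TPM in the IPs and 1336 to 1586 TPM in the inputs, again without overlap, with a smaller log2 fold of -0.29 ± 0.06 (limma, adjusted p = 0.0013). Rps9, a small subunit protein, was at 243.2 to 385.0 TPM in the Prestin IPs and no lower than 543.9 TPM in the inputs, without overlap, with a log2 fold of -0.89 ± 0.09 (limma, adjusted p = 3.4e-07). In the Sox2 strain its IPs (333.2 to 652.1 TPM) and inputs (415.6 to 571.2 TPM) overlapped, and Rps9 was not called (log2 fold -0.08 ± 0.11, limma, adjusted p = 0.55). Rps3, a small subunit protein at the mRNA entry that also acts in DNA repair, went the other way, with 703.8 to 1011 TPM in the Prestin IPs and 579.1 to 814.2 TPM in the inputs. Its groups overlapped and its log2 fold was 0.37 ± 0.06 (limma, adjusted p = 6.3e-05). In the Sox2 strain the log2 fold of Rps3 was 0.15 ± 0.08 and was not called (limma, adjusted p = 0.13).

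The members with the largest own-row rise in the Prestin IP were Rpl10a (log2 fold 2.94), Rpl17 (2.73), Rps13 (2.66) and Rpl9 (2.37), all core proteins with 0% to 0.501% unique coding sequence. Rps13 was listed at 9.98 to 43.8 TPM in the IPs and 1.35 to 4.35 TPM in the inputs, while the sum with its copies was 227.2 to 353.7 TPM in the IPs and 323.0 to 465.5 TPM in the inputs. Rpl9 went from 46.0 to 140.9 TPM against 9.33 to 19.2 TPM in its own row, and from 824.8 to 1421 TPM against 1596 to 1814 TPM as a sum. All 4 reversed when summed, to log2 folds of -0.62, -1.11, -0.43 and -0.62. The largest own-row falls, Rps14 (-1.89), Rps21 (-1.71), Rpl32 (-1.57) and Rps25 (-1.48), were not reversed by the copies. In the Sox2 strain Rpl9 (2.87), Rps13 (2.39), Rps27a (1.87) and Rpl12 (1.62) had the largest own-row rises, and all 4 were below 0 when summed. Rps21 (-2.004), Rplp1 (-1.08) and Rpl32 (-0.81) were among the largest falls there. Rps27a is made as a fusion with ubiquitin, and Rplp1 is an acidic protein of the stalk.

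By role, the summed values were lower for both subunits. In the Prestin strain 29 of 31 small subunit genes and 38 of 43 large subunit genes were called lower, with median log2 folds of -1.19 and -0.84. The Sox2 counts were 24 of 31 and 26 of 43, with medians of -0.75 and -0.41. All 3 stalk genes were called lower in the Prestin strain and 2 of 3 in the Sox2 strain. Of all genes in these fits, 7.25% and 2.47% were called lower, and their median log2 folds were 0.82 and 0.66. The lowest summed value in both strains was that of Rps28, a short small subunit protein at the mRNA exit, with log2 folds of -1.97 ± 0.16 and -1.65 ± 0.20 (limma, adjusted p = 4.1e-08 and 4.9e-05). Rps28 and its copies were at 415.0 to 1140 TPM in the Prestin IPs and 2920 to 3310 TPM in the inputs. Rps12, the second lowest in both, had log2 folds of -1.88 and -1.58.

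Rpl11, which binds Mdm2 when ribosome assembly fails, stood out at the other end, with summed log2 folds of 1.08 ± 0.23 and 0.83 ± 0.08 (limma, adjusted p = 0.00065 and 1.4e-05). Almost all of it was the row of Gm10288. In the Prestin IPs the sum was 1411, 6049 and 6840 TPM as control, 5565, 5612 and 5196 TPM at 6 h and 5841, 5046 and 6823 TPM at 24 h, and in the Prestin inputs 1955 to 2732 TPM. The IP of control replicate 1 thus lay below the input range, and the other 8 lay above it. The 7 Sox2 IPs (2698 to 3987 TPM) lay above the 7 inputs (1308 to 2204 TPM). Other genes called higher as sums were Rps3 and Rpl22l1 in the Prestin strain and Rpl17 and Rpl21 in the Sox2 strain.

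Rpl22, the tagged gene, was flat beside this. Its own row was at 114.9, 91.3 and 93.8 TPM in the Prestin control IPs, 85.3, 87.6 and 105.3 TPM at 6 h and 99.1, 92.1 and 110.1 TPM at 24 h. In the Prestin inputs it was at 125.7, 116.4 and 132.1 TPM as control, 98.3, 96.0 and 109.7 TPM at 6 h and 125.5, 136.3 and 121.9 TPM at 24 h. IP and input overlapped, and the IP was lower by a log2 fold of -0.27 ± 0.07 (limma, adjusted p = 0.0019). The sum with copies gave -0.33 ± 0.08 (limma, adjusted p = 0.0012), which ranked 12 of 81 from the highest. Sox2 control IPs had Rpl22 at 87.8 and 84.5 TPM, those at 6 h at 121.1 and 133.8 TPM and those at 24 h at 87.1, 93.5 and 90.2 TPM. The inputs were at 102.3 and 91.5 TPM as control, 86.0 and 78.0 TPM at 6 h and 91.9, 82.1 and 81.1 TPM at 24 h. Only the 2 IPs at 6 h lay above all inputs. Its own-row log2 fold was 0.18 ± 0.06 (limma, adjusted p = 0.027), was -0.04 without the 6 h libraries and was -0.31 ± 0.12 as a sum with copies (limma, adjusted p = 0.0502), so no direction held. It was -0.72 with median-of-ratios scaling, and the call was lost with the homogenate as a block (limma, adjusted p = 0.0695) and in 4 of 7 fits that left out 1 homogenate. The values of Rpl22 do not separate tagged from untagged alleles.

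Rpl22l1 was higher in the Prestin IP, with 91.5, 63.6 and 63.0 TPM in control IPs, 33.9, 64.7 and 47.6 TPM at 6 h and 41.5, 44.2 and 61.3 TPM at 24 h, against 27.4 to 53.3 TPM in the inputs. The groups overlapped and the log2 fold was 0.57 ± 0.15 (limma, adjusted p = 0.0037). Its sign turned to -0.48 with median-of-ratios scaling between libraries. In the Sox2 strain the own-row log2 fold of Rpl22l1 was 0.42 ± 0.17 and was not called (limma, adjusted p = 0.062).

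**Figure D4:**
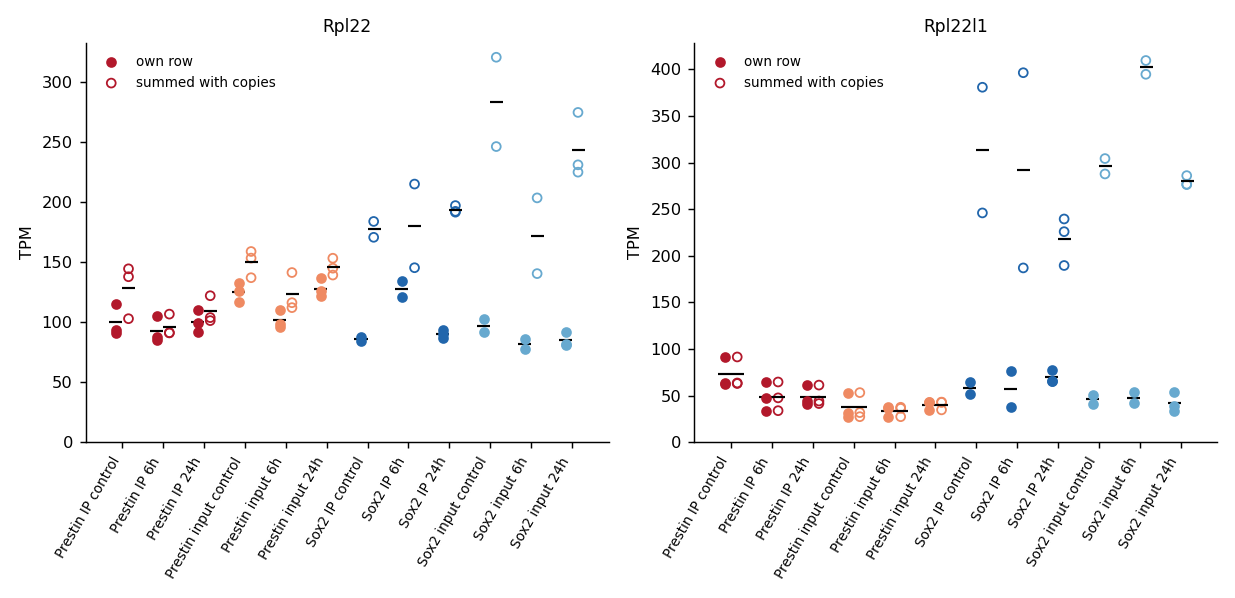
TPM of Rpl22 (left) and its paralog Rpl22l1 (right) in each library by group, filled for the gene's own row and open for the sum with near-identical copies, with lines at the group means. The 2 Sox2 IPs at 6 h are the highest filled points of Sox2 Rpl22, at 121.1 and 133.8 TPM, and copies of Rpl22l1 add to the Sox2 libraries and nothing to the Prestin libraries.

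The same rows could be filled differently in the files of both strains, which touches every comparison of the strains. The Rpl22l1 copy Gm15421 was at 0 in all 18 Prestin libraries and at a mean of 239.0 TPM in the Sox2 libraries, and Rpl22-ps1 was at a mean of 13.6 and 94.0 TPM. Of 162 copies with a mean above 10 TPM in a strain, 41 differed 5-fold or more between the strains. A further 90 copies were listed in the Sox2 files alone.

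The second comparison was between the strains, as the difference of their enrichments in one fit over all 32 libraries. In own rows 15 of 82 members were called higher in the Prestin enrichment and 17 lower, against 14% and 7.62% of all genes. The largest were Rpl17 (2.88), Rpl10a (1.86), Rps23 (1.74) and Rpl23a (1.62) on one side and Rps28 (-1.78), Rps14 (-1.16), Rps25 (-1.13) and Rps15a (-1.10) on the other. All 4 of the higher ones turned below 0 when summed with copies. Summed, 38 of 82 members were called lower in the Prestin enrichment and 1 (Rpl22l1) higher, against 7.69% and 14.2% of all genes, with a median of -0.38 where all genes had 0.19. Members without copies gave the same sign for Rpl8 (-0.61 ± 0.13) and Rps9 (-0.81 ± 0.14), with limma adjusted p of 0.0025 and 0.00047. Rps3 differed by 0.22 ± 0.09, not called (limma, adjusted p = 0.096). With the control libraries alone, 3 against 3 and 2 against 2 libraries, 0 members were called lower in the summed values. The own-row difference for Rpl22 was -0.45 ± 0.09 (limma, adjusted p = 0.0012), and that of the sum was -0.03 ± 0.14 (limma, adjusted p = 0.91).

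Few ribosomal protein genes were called after noise in their own rows, and the sums with copies are given below. The IP groups held 2 or 3 libraries each, so a missing call does not show that a gene was unchanged. In the Prestin IP at 6 h 0 of 81 members were called higher and 2 lower, Rps29 and Rpl37, against 0.856% and 4.77% of all genes. At 24 h 0 were called higher and 3 lower, Rpl28, Rpl37 and Rpl5, against 1.1% and 5.14%. In the Sox2 IP at 6 h 0 of 82 were called higher and 1 lower, Rpl18, against 0.216% and 0.478%. At 24 h none was called in either direction by limma, against 0.108% and 0.0796% of all genes. There 5 members had an unadjusted p under 0.05, as did 2028 of 17577 genes. In the inputs at 6 h 0 of 80 were called higher and 1 lower, Rpl22, against 3.83% and 4.71%. At 24 h 1 was called higher, Rplp0, and 0 lower, against 3.78% and 0.662%. The shares of members called were thus at or below the background in most of these fits. The median log2 difference of the members was between -0.22 (Prestin IP at 6 h, all genes -0.17) and 0.05 (Sox2 IP at 24 h, all genes 0.14).

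**Figure D5:**
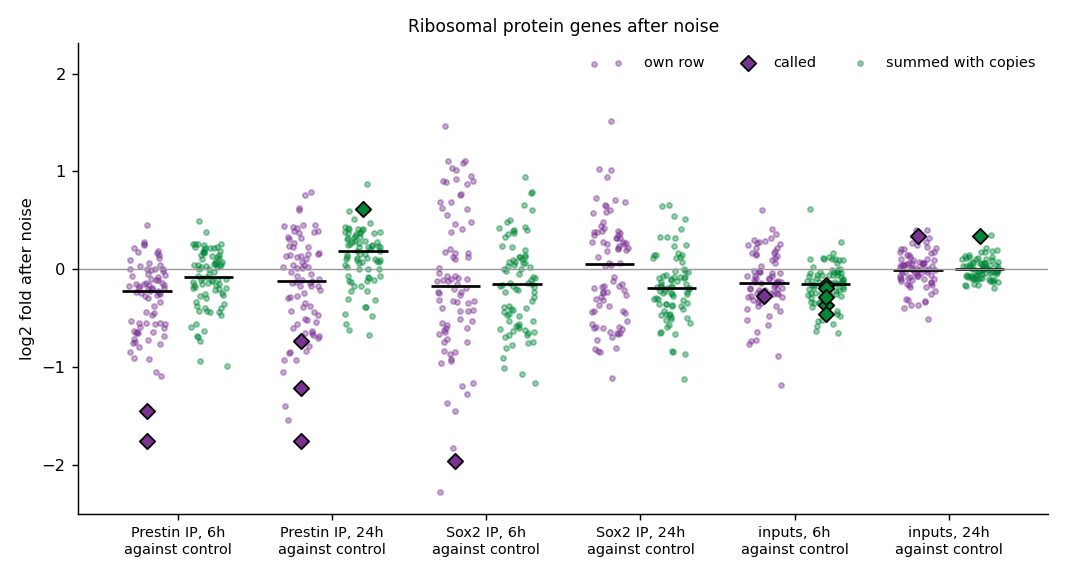
Log2 fold of each ribosomal protein gene after noise against control (y axis) in 6 comparisons, in own rows (purple) and summed with near-identical copies (green). Lines are medians and diamonds are genes called by limma. Medians lie between -0.22 and 0.18, and the called own-row genes of the IPs are not called in the sums.

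Rps29, a small zinc-binding protein of the small subunit, was listed at 103.6, 41.7 and 47.5 TPM in the Prestin control IPs and at 17.6, 15.9 and 16.7 TPM at 6 h, without overlap. The log2 fold was -1.76 ± 0.34 (limma, adjusted p = 0.035). Its sum with copies, 3417 to 4043 TPM as control and 2816 to 4107 TPM at 6 h, overlapped and had a log2 fold of -0.10 ± 0.21 (limma, adjusted p = 0.80). Rpl37, a zinc-binding protein of the large subunit, was at 29.0, 36.3 and 27.1 TPM as control, 9.74, 12.7 and 9.39 TPM at 6 h and 9.79, 11.3 and 18.1 TPM at 24 h. Its log2 folds were -1.45 ± 0.24 and -1.21 ± 0.24 (limma, adjusted p = 0.025 and 0.033). The sum for Rpl37 was 264.2, 128.4 and 187.7 TPM as control, 99.97, 81.7 and 108.5 TPM at 6 h and 104.7, 86.6 and 191.8 TPM at 24 h. Those sums did not overlap at 6 h and had log2 folds of -0.94 ± 0.35 and -0.62 ± 0.35, neither called (limma, adjusted p = 0.14 and 0.29).

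Rpl28 was at 49.6, 34.1 and 27.6 TPM in the Prestin control IPs and 8.24, 13.0 and 9.17 TPM at 24 h, with a log2 fold of -1.76 ± 0.28 (limma, adjusted p = 0.022), but its sum gave 0.28 ± 0.22 (limma, adjusted p = 0.45). Rpl5, which forms a particle with Rpl11 and the 5S RNA, was at 46.4, 47.8 and 36.6 TPM as control and 27.5, 24.4 and 25.2 TPM at 24 h, with a log2 fold of -0.73 ± 0.15 (limma, adjusted p = 0.036) and a sum that gave 0.07 ± 0.20 (limma, adjusted p = 0.85). In the Sox2 IP Rpl18 was at 21.95 and 14.2 TPM as control and 3.40 and 4.23 TPM at 6 h, with a log2 fold of -1.96 ± 0.26 (limma, adjusted p = 0.047), and its sum gave -0.17 ± 0.34 (limma, adjusted p = 0.83). The Sox2 libraries at 6 h are also those with the fewest genes above 0, and the part of this in the result was not tested. These calls rested on few libraries. When 1 library was left out, the call was lost in 7 of 9 fits for Rps29 and 5 of 9 for Rpl37 at 6 h, in 3 of 9 for Rpl28 (each of them a 24 h library), 7 of 9 for Rpl37 and 8 of 9 for Rpl5 at 24 h, and 7 of 7 for Rpl18. Marker levels moved across the same Prestin IPs: the outer hair cell sum of 8 markers was 814.2 to 2207 TPM as control, 507.8 to 824.0 TPM at 6 h and 774.9 to 891.0 TPM at 24 h. The sum of 9 supporting cell markers was 2347 to 2833, 2205 to 2950 and 3614 to 4071 TPM, and that of 7 macrophage markers 88.0 to 131.1, 85.1 to 149.3 and 219.0 to 343.3 TPM. In the Sox2 IPs the macrophage sum was 99.9 to 141.9 TPM as control, 202.0 to 249.5 TPM at 6 h and 215.5 to 230.6 TPM at 24 h. Their part in the results was not tested.

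As sums with copies, 0 members were called in the Prestin IP at 6 h (5.72% of all genes called in either direction, 6 members with an unadjusted p under 0.05) and 1 at 24 h (6.47% of all genes), Rpl15, which was higher by 0.62 ± 0.14 (limma, adjusted p = 0.043). None was called by limma in the Sox2 IP at 6 h or 24 h (0.674% and 0.19% of all genes). There 13 and 5 members had an unadjusted p under 0.05, as did 3155 and 2020 of 17351 genes. In the Prestin IP at 6 h 4355 of 16483 genes had an unadjusted p under 0.05. In the inputs the sums gave 5 members called lower at 6 h (8.76% of all genes called in either direction), among them Rpl3, Rpl4, Rpl11 and Rpl22, with log2 folds between -0.46 and -0.16. Of the 81 summed members 37 had an unadjusted p under 0.05 there, as did 3532 of 13969 genes, and 68 were below 0. At 24 h 1 was called (4.57% of all genes), Rplp0.

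Rpl22 fell in the inputs at 6 h by a log2 fold of -0.27 ± 0.07 (limma, adjusted p = 0.035) from the values given above, and by -0.46 ± 0.12 as a sum (limma, adjusted p = 0.029). At 24 h it was -0.07 ± 0.07 and not called (limma, adjusted p = 0.75). The sum of 5 erythroid markers was also lower in these inputs without overlap, going from 2060 to 4152 TPM as control to 1098 to 1722 TPM at 6 h in the Prestin strain and from 1818 to 1999 TPM to 953.3 to 1163 TPM in the Sox2 strain. Its part in this result and in the 5 summed calls was not tested. The 6 h call of Rpl22 was lost when mitochondrial genes, Malat1 and Mir6236 were left out of the TPM, with median-of-ratios scaling (limma, adjusted p = 0.091 and 0.23), and in 7 of 16 fits that left out 1 library. Rplp0, the scaffold of the stalk, was called at 24 h in all 16 fits that left out 1 library. It was at 90.8, 95.9 and 106.0 TPM in the Prestin control inputs and 125.5, 135.4 and 128.9 TPM at 24 h, and at 83.3 and 79.6 TPM against 90.1, 99.6 and 104.6 TPM in the Sox2 inputs. Neither strain overlapped, with a log2 fold of 0.34 ± 0.06 (limma, adjusted p = 0.0033) in the own row and 0.34 ± 0.07 (limma, adjusted p = 0.010) as a sum. In the same inputs the sum of 7 macrophage markers was 149.9 to 169.9 TPM as control and 383.4 to 410.1 TPM at 24 h in the Prestin strain, and 189.3 to 204.4 and 319.8 to 480.5 TPM in the Sox2 strain; its part in the result was not tested. In the Sox2 IP at 24 h Rplp0 had the smallest p of the members, with 52.2 and 50.9 TPM as control and 77.4, 83.8 and 72.4 TPM at 24 h, a log2 fold of 0.58 ± 0.13 that was not called (limma, adjusted p = 0.23). Rpl27 and Rpl35 followed there, with log2 folds of 0.94 ± 0.25 and 2.10 ± 0.62, not called (limma, adjusted p = 0.26 and 0.31).

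In the Sox2 IP at 6 h Rpl22 was 0.56 ± 0.14 higher than control without overlap and was not called (limma, adjusted p = 0.12), and its sum gave 0.00 ± 0.21. The response of the IP minus that of the input tests whether the tagged cells responded differently from the whole cochlea. In the Prestin strain at 6 h this was called for 1 member, Rpl37, at -1.32 ± 0.31 (limma, adjusted p = 0.042), against 2.42% of all genes called in either direction, and the sum gave -0.92 ± 0.37 (limma, adjusted p = 0.18). At 24 h none was called by limma (1.04% of all genes), and Rpl28 (-1.33) had the smallest p. There 8 members had an unadjusted p under 0.05, as did 3031 of 17363 genes. In the Sox2 strain none was called by limma at 6 h (0.269% of all genes), where Rpl22 (0.80 ± 0.16, adjusted p = 0.10), Rps4x (1.29) and Rps27l (1.29) led. There 13 members had an unadjusted p under 0.05, as did 2030 of 18560 genes. At 24 h none was called by limma (0.0485% of all genes), and Rpl35 (1.89), Rpl37a (1.78) and Rpl10a (0.70) led. There 1 member had an unadjusted p under 0.05, as did 1025 of 18560 genes.

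The share of TPM in members and copies moved in different directions after noise. In the Prestin IPs it was 6.88% ± 0.605 (SD, n = 3) as control, 6.76% ± 0.796 (SD, n = 3) at 6 h and 7.87% ± 1.06 (SD, n = 3) at 24 h, and the groups overlapped. In the Sox2 IPs it was 8.08% and 9.41% as control, 7.42% and 8.68% at 6 h and 7.33% to 8.05% at 24 h, where all 3 libraries lay below both controls. In the Prestin inputs it was 14.6% ± 0.395, 14.1% ± 0.405 and 15.4% ± 0.110 (SD, n = 3 each), where all 24 h libraries lay above the control range and 2 of 3 libraries at 6 h lay below it. In the Sox2 inputs it was 13.9% and 15.1% as control, 11.5% and 12.2% at 6 h and 12.9% to 13.2% at 24 h, where both noise groups lay below control. The 4 Sox2 libraries at 6 h, which had the fewest genes above 0, include the lowest inputs, and the part of this in the result was not tested.

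Other genes of translation, each counted in its own row, did not follow one direction. Their counts are to be read against the 68.5% of all genes called higher and 7.68% called lower in the Prestin IP, and 55.2% and 2.72% in the Sox2 IP. Of 35 ribosome biogenesis factors, 23 were called higher and 4 lower in the Prestin IP (median log2 fold 0.49), and 25 higher and 0 lower in the Sox2 IP (0.67), so the Prestin share called higher was near that of all genes. Of 29 initiation factors, 15 were called higher and 8 lower, and 20 higher and 0 lower (0.27 and 0.50). Of 18 regulators of the TOR and stress pathways tested in each strain, 18 and 16 were called higher and none lower (1.47 and 0.96). Mitochondrial ribosomal proteins gave 35 higher and 18 lower of 74, and 35 higher and 0 lower of 75 (0.18 and 0.35). Nuclear genes of oxidative phosphorylation were mostly lower in the Prestin strain, with 9 higher and 54 lower of 77 in the Prestin strain and 12 higher and 26 lower of 76 in the Sox2 strain (medians -0.70 and -0.18). The medians of all genes in these fits were 0.82 and 0.65.

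The members whose own-row pattern was most like that of Rpl22, by Pearson correlation of log2(TPM + 1) over the 12 group means, were Rps27l (r = 0.665), Rps28 (0.663) and Rpl38 (0.654). The least like included Rpl13 (-0.651) and Rps10 (-0.642). The 12 points come from both strains and both fractions, so these values describe mainly differences between strain and fraction. Rps28 and Rpl38 were listed at only 10.1 and 3.39 TPM, with copies at 2065 and 2664 TPM. Rps28, Rpl38 and Rpl13 had 0% unique coding sequence and Rps10 had 6.95%, so their own-row patterns cannot be told apart from the assignment of reads between gene and copies.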

How the data were processed

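Libraries were made with a directional kit, per the labels' protocols. The deposited files hold TPM per gene, which the authors computed so that each library sums to 1000000. The submitters' processing notes name TopHat and GRCm38. No source used here gives the counting tool, the annotation, the use of strand or the handling of reads that map to several places.

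The linear model of limma 3.58.1 (R 4.3.3) was fitted to log2(TPM + 1) with a trended prior and Benjamini-Hochberg adjustment over all genes, threshold 0.05. Tested genes had 1 TPM or more in as many libraries as the smallest group holds (3 for Prestin, 2 for Sox2 or both strains, 5 for inputs). Fold changes on this scale understate the change of low genes. Copies were found with blastn 2.17.0 in GENCODE M21, which held 99.9% of the files' identifiers. Comparisons over both strains summed only the copies listed in both strains' files. Values were tabulated in python 3.11.15 (pandas 2.3.3, numpy 2.4.6) and drawn with matplotlib 3.10.9. The fits were tested on simulated data. The members and gene lists were chosen with earlier results of these data known. Named genes were Rpl22, Rpl22l1 and, per comparison, up to 4 members with the largest called rise and fall, or else the 3 smallest p. Others, among them Rps9, Rps12, Rps28, Rpl11 and Rpl15, were named after their values were seen.

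The design pairs the IP and input of each homogenate. Across genes, what the 2 fractions of a homogenate had beyond their group means correlated with r of 0.018 to 0.264 (16 homogenates). In the Sox2 control and 6 h groups, with 2 homogenates each, both have the same r by construction, so the values are not all independent. The main fits did not use this pairing, and results with the homogenate as a block are given below. Some members and a sequence are not reported here.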

Additional observations from a re-analysis of the deposited data

Results flagged for a closer look

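Results are given here because a difference between the strains or between IP and input was itself called by limma; explanations were not tested. The difference of the IP-over-input enrichments, Prestin minus Sox2, was called in own rows for 15 members higher and 17 lower. The named ones were Rpl22 (-0.45), Rpl17 (2.88), Rpl10a (1.86), Rps23 (1.74), Rpl23a (1.62), Rps28 (-1.78), Rps14 (-1.16), Rps25 (-1.13) and Rps15a (-1.10), all log2 values. Every positive one of these turned below 0 when summed with copies, and Rpl22 was not called as a sum. For Rpl22l1 the difference was called in the sum with copies (0.86), whose main copy was at 0 in all Prestin libraries. The noise response of Rpl37 at 6 h differed between Prestin IP and input (-1.32). No group held 4 or more libraries, so single libraries were not screened as outliers.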

How the results depend on the processing

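Summing genes with copies moved the enrichment counts most, to 3 members higher and 72 lower (Prestin), 3 and 54 (Sox2), and 1 and 38 for the difference between strains. With median-of-ratios scaling the own-row counts were 12 and 50 (Prestin) and 3 and 46 (Sox2), and 0 summed members were called higher in either strain. For this setting and those that follow, the shares of all genes called are not given, so the counts have no background to be read against. Without mitochondrial genes, Malat1 and Mir6236, 28 members were called lower in the Sox2 IP, and the summed values gave 1 higher there and 3 higher for the difference. Control libraries alone gave 2 higher and 4 lower (Sox2), 4 and 1 (difference), 1 higher and 16 lower (Sox2, summed) and 0 and 0 (difference, summed); fewer libraries enter these fits. The share of TPM in members, IP minus input, was -0.828 and -0.437 percentage points without mitochondrial genes, Malat1 and Mir6236 in the total, and -7.52 and -5.06 with copies.

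The log2 fold of Rpl22 in the Sox2 IP was -0.72 with median-of-ratios scaling, -0.12 without mitochondrial genes, Malat1 and Mir6236, -0.17 in controls alone, -0.039 without the 6 h libraries and -0.31 summed. Other values of Rpl22 that changed sign or lost their call were -0.32 (Prestin enrichment, controls alone), -0.16 and -0.027 (difference, controls alone and summed), 0.13 (Prestin IP at 6 h, median-of-ratios), -0.22 (Prestin IP at 24 h, summed), -0.0029 (Sox2 IP at 6 h, summed), -0.062 (Sox2 IP at 24 h, median-of-ratios), -0.20 and -0.22 (inputs at 6 h, median-of-ratios and without mitochondrial genes, Malat1 and Mir6236), -0.12 (Prestin IP minus input at 6 h, summed) and 0.13 (the same at 24 h, median-of-ratios). Rpl22 minus the median of the other members, IP minus input, was -0.79 (Prestin) and -0.19 (Sox2) and became 0.70 and 0.43 when summed, and 0.028 in the Sox2 strain without paralogs and members under 1 TPM. The causes were not tested.

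After noise, the Prestin IP at 6 h had 1 member called with median-of-ratios scaling or no filter and 0 summed, the Prestin IP at 24 h had 1 summed, the Sox2 IP at 6 h had 0 without a filter or summed, and the inputs at 6 h had 5 summed. The call of Rpl37 in the Prestin IP minus input at 6 h fell to 0 members with median-of-ratios scaling, a pseudocount of 0.1, no filter, the homogenate as a replicate block, or copies summed.

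With the homogenate as a replicate block, Rpl22 in the Sox2 IP kept its log2 fold of 0.18 and lost its call (limma, adjusted p = 0.0695). Replicate numbers did not pair samples across conditions (r of -0.073 to 0.062 across genes in 9 pairs of each Prestin fraction and 3 of each Sox2 fraction). As a block they gave 0 called members in the Prestin IP at 6 h and 24 h, the Sox2 IP at 6 h and the inputs at 6 h, where Rpl22 was -0.26.

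Leaving out 1 library or homogenate gave 11 to 23 members higher in the Sox2 IP, with Rpl22 at 0.14 to 0.23. Called members ranged from 0 to 3 in the Prestin IP at 6 h and at 24 h (Rpl22 there -0.058 to 0.11), 0 to 0 in the Sox2 IP at 6 h, 0 to 2 in the inputs at 6 h (Rpl22 -0.31 to -0.24), 1 to 2 in the inputs at 24 h, 0 to 2 in the Prestin IP minus input at 6 h and 0 to 6 in the Sox2 IP minus input at 6 h (Rpl22 0.66 to 0.94; 6 without the 6 h homogenate 2). Rpl22 in the Prestin IP minus input at 24 h ranged from -0.13 to 0.079. Summed members called higher ranged from 3 to 5 (Prestin), 1 to 4 (Sox2) and 0 to 3 (difference), and called lower from 25 to 42 (difference).

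Of 916 checks of named genes, 785 kept direction and call, 86 lost the call, 4 gained it and 41 changed sign, 22 of them when summed. Summed values that changed sign were -0.62 (Rpl10a), -1.11 (Rpl17), -0.43 (Rps13) and -0.62 (Rpl9) in the Prestin IP, -0.29 (Rpl22l1), -0.22 (Rpl9), -0.15 (Rps13), -0.035 (Rps27a) and -0.96 (Rpl12) in the Sox2 IP, and -1.77 (Rpl17), -0.56 (Rpl10a), -0.38 (Rps23) and -0.28 (Rpl23a) for the difference. After noise they were 0.28 (Rpl28) and 0.070 (Rpl5) in the Prestin IP at 24 h, 0.044 (Rpl28) in the Prestin IP minus input at 24 h, -0.49 (Rpl22l1) and -0.59 (Rpl35) in the Sox2 IP at 24 h, and -0.41 (Rpl22l1), -0.48 (Rpl35) and -0.45 (Rpl10a) in the Sox2 IP minus input at 24 h. Rpl22l1 also turned to -0.48 in both the Prestin and the Sox2 IP with median-of-ratios scaling. In the inputs Rpl22l1 was 0.036 (median-of-ratios), 0.013 (without mitochondrial genes, Malat1 and Mir6236) and 0.12 (summed) at 6 h, and -0.010 (median-of-ratios) at 24 h. With 1 library or homogenate left out, Rpl22l1, which was not called in these comparisons, ranged from -0.072 to 0.38 in the difference, -0.59 to 0.40 in the Sox2 IP at 6 h, -0.83 to 0.53 in the Sox2 IP minus input at 6 h, -0.15 to 0.10 in the inputs at 6 h and -0.092 to 0.14 in the inputs at 24 h.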

Other observations

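Genes related to the members by function are given here as values, in their own rows. Of all genes, 68.5% were called higher and 7.68% lower in the Prestin IP, and 55.2% and 2.72% in the Sox2 IP, against which the counts are to be read. Of 10 members mutated in Diamond-Blackfan anaemia, a failure of red cell production, 4 were called higher and 1 lower in the Prestin IP, and 2 and 1 in the Sox2 IP. Of 9 members at the rim of the exit tunnel, where the growing protein leaves the ribosome, 4 were called higher and 2 lower in the Prestin IP, and 1 and 0 in the Sox2 IP (limma). Of 20 other transcripts that begin with a terminal oligopyrimidine tract, the shared start of ribosomal protein messages, 8 were called higher and 9 lower in the Prestin IP (median log2 fold -0.10), and 9 and 3 in the Sox2 IP (0.23). Of 6 elongation factors, 1 was called higher and 3 lower (-0.30), and 2 and 2 (0.03). The medians of all genes were 0.82 and 0.65.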
